A study of Rattus norvegicus with 22 samples.

Results

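Voltage-gated calcium channel alpha-1 subunits were followed on arrays of neonatal rat spinal neurons by taking every probe set whose platform symbol is Cacna1a, Cacna1b, Cacna1c, Cacna1d, Cacna1e, Cacna1g, Cacna1h or Cacna1i, each probe set apart. This gave 12 probe sets of 6 genes, of 1050 probe sets and 643 named genes in all. Cacna1a had 2 probe sets, Cacna1c 3, Cacna1d 4, and Cacna1b, Cacna1e and Cacna1g 1 each, while Cacna1h and Cacna1i were not analysed here because no probe set in the table carries their symbol. The arrays came from Wistar rats of postnatal day 0 to 4, and the study compared descending commissural interneurons (dCINs, 7 arrays, labelled CIN), whose axons cross the midline, with motor neurons (MNs, 7 arrays) and with randomly dissected cells of the ventral horn (MIX, 8 arrays). The dCINs and MNs were filled by a rhodamine dextran carried back from their cut axons, in the cord below the segment for dCINs and in the ventral roots for MNs, and were cut out of frozen lumbar sections by laser. Each array carried the RNA of 1 animal, amplified in a pair of rounds, from 50 to 100 cells for dCINs (median 75), 55 to 250 for MNs (median 100) and 95 to 187 for MIX (median 112.5).

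The alpha-1 subunit forms the pore and the voltage sensor of a calcium channel and sets its current type. Cacna1a (P/Q-type), Cacna1b (N-type) and Cacna1e (R-type) belong to a family that supplies the calcium entry behind transmitter release at many nerve terminals, Cacna1c and Cacna1d code for L-type channels, which in motor neurons are known for slow inward currents that prolong firing, and Cacna1g, Cacna1h and Cacna1i code for T-type channels, which open close to rest and allow rebound firing. Auxiliary beta, alpha2-delta and gamma subunits assemble with the pore and change its traffic to the membrane and its gating.

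The markers Slc18a3 and Slc32a1 followed the labels on 1 probe set each. The vesicular acetylcholine transporter Slc18a3 (U09211_at) averaged 566 ± 457 signal units in dCINs and 4040 ± 927 in MNs, and the vesicular inhibitory amino acid transporter Slc32a1 (AF030253_at) averaged 514 ± 131 in dCINs against 125 ± 113 in MNs (SD, n = 7 each). Their other probe sets were not called, Slc18a3 X80395cds_s_at at 39.8 in dCINs and 50.4 in MNs (limma adjusted p = 0.439) and Slc32a1 rc_AA996551_s_at at 38.0 in dCINs and 36.0 in MNs (adjusted p = 0.760). Of the astrocyte list 4 of 8 genes had a platform symbol, and their summed signal lay at 5609 to 8747 in dCINs (median 8328), 3552 to 6240 in MNs (median 4977) and 3641 to 9039 in MIX (median 7118). Most of that sum was Apoe X04979_at, at 6027 ± 869 in dCINs and 3768 ± 798 in MNs. It was called as higher in dCINs (limma adjusted p = 0.0125), 1 of 8 probe sets of the list, beside 3.81 percent of all. An unadjusted limma p under 0.05 was found for 3 of the 8. The others of these were Apoe S76779_s_at (368 in dCINs, 212 in MNs) and S100b (1103 and 771), both higher in dCINs. The median log2 difference of the 8, dCIN minus MN, was 0.25, and Slc1a3 X63744_g_at had -0.074. A pair of probe sets that the study names as Gfap, the defining astrocyte filament, was not called. They had 29.2 and 48.3 in dCINs against 30.1 and 53.9 in MNs. Of the oligodendrocyte list 5 of 7 genes were measured, by 11 probe sets, and none was called between dCINs and MNs. An unadjusted limma p under 0.05 was found for 3 of the 11, beside 10.9 percent of all probe sets. Their log2 differences, dCIN minus MN, were -0.31 (Mag X06554cds_s_at), -0.28 (Mog L21995_s_at) and 0.83 (Pdgfra rc_AI232379_at). The only measured microglial gene, Itgam, lay between 14.1 and 27.5 on all arrays, and no gene of the excitatory neuron, vessel or Schwann cell lists was measured. The part of cells other than the labelled ones in the calcium channel signals was not tested, and a lower signal cannot be told apart from fewer cells of a type.

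The deposited signals are linear units without a fixed zero, and those of the 12 alpha-1 probe sets lay between 19.3 and 136 on all 22 arrays, in a table that runs from 1 to 8642. Array medians ran from 43.5 to 50.9 in dCINs, from 44.3 to 50.8 in MNs and from 45.0 to 48.2 in MIX. The study took Gfap, at 29.2 and 48.3 in dCINs, as not expressed. On each array, 7 or 8 of the 12 alpha-1 probe sets lay below the median in dCINs, 6 to 8 in MNs and 5 to 8 in MIX. Their spread within a group was no wider than that of the table, with a median SD of the log2 signal of 0.21 in dCINs, 0.23 in MNs and 0.20 in MIX, against 0.26, 0.27 and 0.25 over all probe sets.

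dCINs and MNs were compared probe set by probe set with limma on the log2 signal, and a call needed an adjusted p under 0.1 (Benjamini-Hochberg, over all 1050). None of the 12 alpha-1 probe sets was called, beside 3.81 percent of all probe sets (40 of 1050), and none had an unadjusted p under 0.05, beside 10.9 percent. None of the 12 lacked overlap between the arrays of dCINs and MNs, beside 1.62 percent of all probe sets. The log2 difference, dCIN minus MN, was positive for 7 and negative for 5 of the 12, with a median of 0.026, beside -0.034 over all probe sets. Its size had a median of 0.107, beside 0.132 over all.

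**Figure D1:**
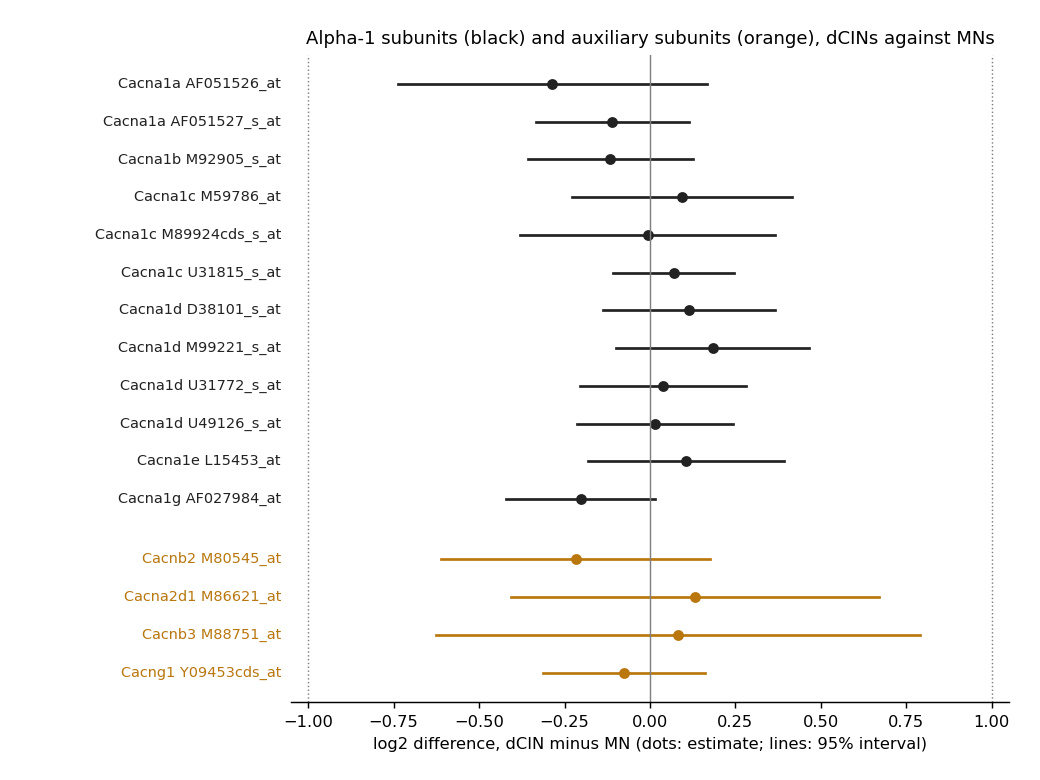
The log2 difference between dCINs and MNs is plotted on the x axis for each alpha-1 probe set (black) and each auxiliary subunit probe set (orange), as the limma estimate with its 95% interval. All 12 alpha-1 intervals span 0 and lie inside the dotted lines at -1 and 1.

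The intervals show how large a difference in signal the arrays leave possible. Whether low signals compress a difference in RNA was not tested. For Slc18a3 (MNs over dCINs) the dimmer probe set gave a fold of 1.23 and the brighter 11.1. For Slc32a1 (dCINs over MNs) the folds were 1.06 and 5.29. For all 12 alpha-1 probe sets the 95% interval lay within a log2 difference of -1 to 1, that is within a 2-fold change either way, which held for 86.9% of the table. For 11 of the 12 it lay within -0.5 to 0.5, which held for 57.5% of the table. Going by the largest p that was called in the table, 0.00373, and the standard error of each probe set, a log2 difference of 0.28 to 0.73 (median 0.40, a fold of 1.32) would have been called. The smallest difference called anywhere in the table was 0.34 for Gap43, a protein of growing axons. An alpha-1 estimate below the value of its probe set would not have been called, but this sets no limit on the true difference.

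Cacna1a, the pore of the P/Q-type channel that drives release at many central synapses, had a lower mean in dCINs than in MNs on both probe sets, without a call. On AF051526_at the signal had a lowest, median and highest value of 21.3, 26.8 and 38.5 in dCINs, 21.9, 37.7 and 58.8 in MNs and 28.1, 35.4 and 41.9 in MIX. The log2 difference of dCINs from MNs was -0.29 (SE 0.21, 95% interval -0.74 to 0.17, limma adjusted p = 0.715, exact permutation p = 0.242, two-sided), the widest interval of the 12. In both groups the arrays numbered 1 and 2 were the lowest, at 24.2 and 21.3 in dCINs and 21.9 and 24.3 in MNs, while arrays 3 to 7 lay at 25.9 to 38.5 in dCINs and 35.8 to 58.8 in MNs.

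The second Cacna1a probe set, AF051527_s_at, did not share that split between the arrays. Its signal had a lowest, median and highest value of 25.4, 29.7 and 38.1 in dCINs, 27.0, 33.9 and 36.6 in MNs and 27.4, 32.2 and 33.4 in MIX. The log2 difference of dCINs from MNs was -0.11 (SE 0.10, 95% interval -0.33 to 0.11, limma adjusted p = 0.727). Its highest value of all, 38.1, came from dCIN array 1, which was among the low arrays of AF051526_at.

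Cacna1b, the N-type subunit that shares the release sites with Cacna1a early in life, was measured by M92905_s_at. Its signal had a lowest, median and highest value of 67.2, 74.9 and 81.5 in dCINs, 61.8, 79.2 and 104 in MNs and 67.0, 70.3 and 78.9 in MIX. dCINs and MIX were tightly grouped, with a coefficient of variation of 7.60% in dCINs and 5.35% in MIX, against 18.1% in MNs. MN arrays 1 and 2 lay apart, at 97.3 and 104, above the 61.8 to 79.4 of MN arrays 3 to 7 and above every dCIN and MIX array. The log2 difference of dCINs from MNs was -0.12 (SE 0.11, 95% interval -0.36 to 0.13, limma adjusted p = 0.732), and without the MN samples of over 200 cells, which are these same arrays, it was 0.016.

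Cacna1e, the R-type subunit, was measured by L15453_at, with a lowest, median and highest signal of 27.8, 30.5 and 39.5 in dCINs, 23.7, 27.6 and 38.7 in MNs and 25.9, 30.8 and 34.8 in MIX. The groups overlapped, although 4 of 7 MN arrays lay below every dCIN array and 2 of 7 dCIN arrays above every MN array, and the log2 difference of dCINs from MNs was 0.10 (SE 0.13, 95% interval -0.18 to 0.39, limma adjusted p = 0.806). When cell number entered the fit as a covariate, the difference was 0.30 (limma adjusted p = 0.313). Of the 4 probe sets of these 3 genes, 3 had a negative and 1 a positive difference, and none was called.

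**Figure D2:**
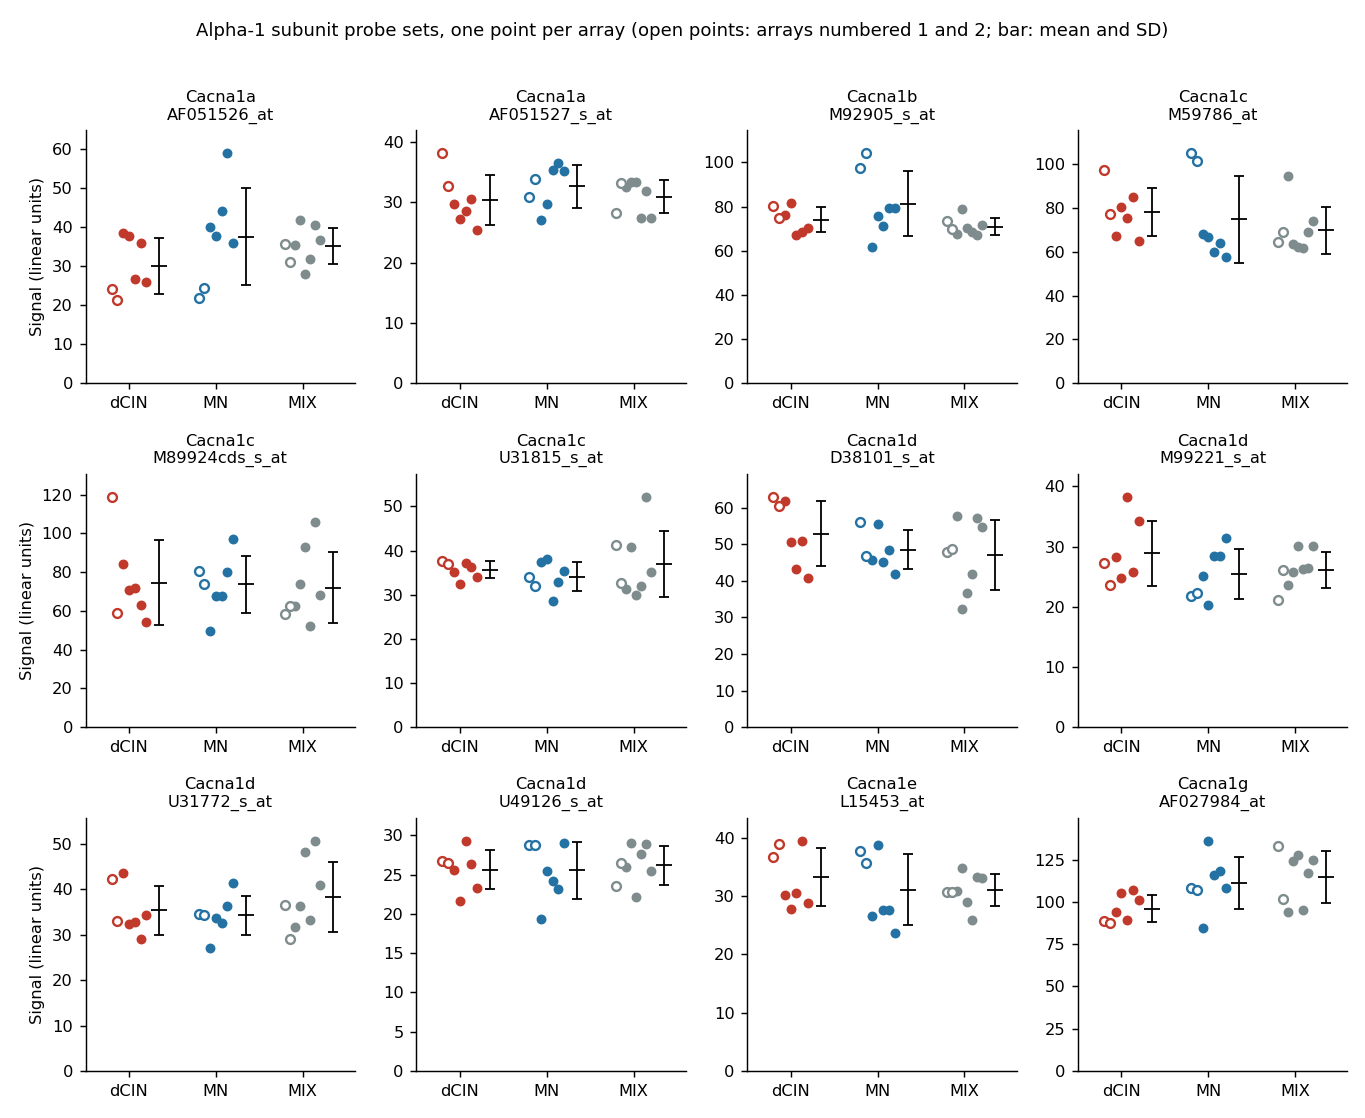
Each panel plots the signal of 1 alpha-1 probe set (linear units, y axis from 0) on each array of dCINs, MNs and MIX, with open points for the arrays numbered 1 and 2 and black bars for the group mean and SD. The dCIN and MN points overlap in every panel, and MN arrays 1 and 2 stand above the other MN arrays for Cacna1b (97.3 and 104) and for Cacna1c M59786_at (105 and 101) and below them for Cacna1a AF051526_at (21.9 and 24.3).

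Cacna1c codes for the more widespread L-type subunit, the pore of the channel of heart muscle and of many neurons, and its 3 probe sets gave differences around 0. On M59786_at the signal had a lowest, median and highest value of 64.9, 77.0 and 97.2 in dCINs, 57.5, 66.7 and 105 in MNs and 61.7, 66.6 and 94.2 in MIX. The log2 difference of dCINs from MNs was 0.094 (SE 0.15, 95% interval -0.23 to 0.41, limma adjusted p = 0.837). MN arrays 1 and 2, at 105 and 101, were the highest of the group, and the other MN arrays lay between 57.5 and 68.1, so that the group mean of 74.6 fell in a gap between its own arrays.

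The remaining Cacna1c probe sets differed in how tight they were. M89924cds_s_at was the most variable alpha-1 probe set in dCINs, with a lowest, median and highest signal of 54.0, 71.0 and 119 in dCINs, 49.6, 74.0 and 97.2 in MNs and 52.0, 65.3 and 106 in MIX. Its log2 difference of dCINs from MNs was -0.0060 (SE 0.18, 95% interval -0.38 to 0.37, limma adjusted p = 0.997). U31815_s_at was the tightest in dCINs, with a coefficient of variation of 5.29%, and had a lowest, median and highest signal of 32.4, 36.2 and 37.6 in dCINs, 28.6, 34.1 and 38.1 in MNs and 29.9, 33.9 and 52.1 in MIX. Its log2 difference was 0.069 (SE 0.083, 95% interval -0.11 to 0.25, limma adjusted p = 0.793), and its highest value came from MIX array 7.

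Cacna1d, the L-type subunit that opens at more negative potentials, had 4 probe sets, all with a small positive log2 difference of dCINs from MNs that was not called. M99221_s_at had the largest, 0.18 (SE 0.13, 95% interval -0.10 to 0.47, limma adjusted p = 0.715, exact permutation p = 0.186, two-sided), with a lowest, median and highest signal of 23.7, 27.3 and 38.2 in dCINs, 20.3, 25.1 and 31.4 in MNs and 21.0, 26.2 and 30.1 in MIX. The higher dCIN mean there rested on dCIN arrays 5 and 7, at 38.2 and 34.2, while the other dCIN arrays lay inside the range of MNs. It was 0.11 without dCIN array 5, 0.041 with cell number as a covariate and 0.042 with array weights.

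D38101_s_at was the next, with a lowest, median and highest signal of 40.9, 50.8 and 62.9 in dCINs, 42.0, 46.9 and 56.2 in MNs and 32.2, 48.3 and 57.8 in MIX. Its log2 difference of dCINs from MNs was 0.11 (SE 0.12, 95% interval -0.14 to 0.36, limma adjusted p = 0.750). Here dCIN arrays 1, 2 and 3 were above every MN array and dCIN array 7 was below them all, although it was one of the high arrays on M99221_s_at.

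On the last pair of Cacna1d probe sets the groups lay on top of each other. U31772_s_at had a lowest, median and highest signal of 29.0, 33.2 and 43.7 in dCINs, 27.1, 34.4 and 41.5 in MNs and 29.1, 36.4 and 50.8 in MIX, and a log2 difference of dCINs from MNs of 0.038 (95% interval -0.20 to 0.28). U49126_s_at had 21.7, 26.3 and 29.3 in dCINs, 19.3, 25.5 and 29.0 in MNs and 22.2, 26.2 and 29.0 in MIX, and a log2 difference of 0.014 (95% interval -0.22 to 0.24). Over both L-type genes, 6 of 7 probe sets had a positive difference and 1 a negative one, all between -0.0060 and 0.18, and none was called.

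Cacna1g, a T-type subunit, was the alpha-1 gene whose groups stood furthest apart relative to their spread, with its lowest mean in dCINs. On AF027984_at the signal had a lowest, median and highest value of 87.4, 94.1 and 107 in dCINs, 84.4, 108 and 136 in MNs and 94.0, 121 and 133 in MIX. The means were 96.1 ± 8.21 in dCINs (SD, n = 7), 111 ± 15.5 in MNs (SD, n = 7) and 115 ± 15.6 in MIX (SD, n = 8). Of the MN arrays 6 of 7 lay above every dCIN array, and the exception, MN array 3 at 84.4, was the lowest of all 22.

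The log2 difference of Cacna1g in dCINs from MNs was -0.20 (SE 0.10, 95% interval -0.42 to 0.016), a fold of 0.869. The exact permutation test of this probe set alone gave p = 0.0478 (two-sided), the only alpha-1 probe set of 12 under 0.05 in that test, beside 9.9 percent of all probe sets (104 of 1050), and with limma the unadjusted p was 0.0667 and the adjusted p = 0.517. The sign was negative within arrays 1 and 2 (-0.29) and within arrays 3 to 7 (-0.17) of both groups. With single arrays left out the difference ran between -0.27 without MN array 3 (limma adjusted p = 0.167) and -0.15 without MN array 4 (adjusted p = 0.680).

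The comparisons of dCINs and of MNs with MIX share the MIX arrays, and limma was fitted for both with 3 group means over all 22 arrays. Between dCINs and MIX none of the 12 alpha-1 probe sets was called, beside 0.476 percent of all probe sets, and 1 had an unadjusted p under 0.05, beside 7.14 percent. That one was Cacna1g, with a log2 difference of dCINs from MIX of -0.25 (SE 0.10, 95% interval -0.46 to -0.038, limma adjusted p = 0.541, exact permutation p = 0.0176, two-sided). Its unadjusted limma p was 0.0227, and was 0.138 with cell number as a covariate (-0.18) and 0.147 without arrays 1 and 2 (-0.19). Under the other alternatives it lay between 0.00821 (quantile normalization) and 0.0473 (array weights). The lowest limma adjusted p was 0.310, with quantile normalization. Between MNs and MIX none was called, beside 0.952 percent of all, and none had an unadjusted p under 0.05, beside 11.8 percent. Cacna1g differed by -0.047 there (95% interval -0.26 to 0.16), and the largest difference of MNs from MIX was that of Cacna1b, 0.18 (95% interval -0.018 to 0.37, limma adjusted p = 0.412). All 12 intervals lay within -1 to 1 in both comparisons.

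No order of the groups held across the family. Among the 12 probe sets the highest mean was in dCINs for 5, in MNs for 3 and in MIX for 4, and the lowest was in dCINs for 3, in MNs for 4 and in MIX for 5. Both Cacna1a probe sets had their lowest mean in dCINs, as had Cacna1g. Cacna1b, Cacna1e, Cacna1c M59786_at, Cacna1c M89924cds_s_at and Cacna1d D38101_s_at had their lowest mean in MIX. No neighbours in any of these orders were called as different.

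**Figure D3:**
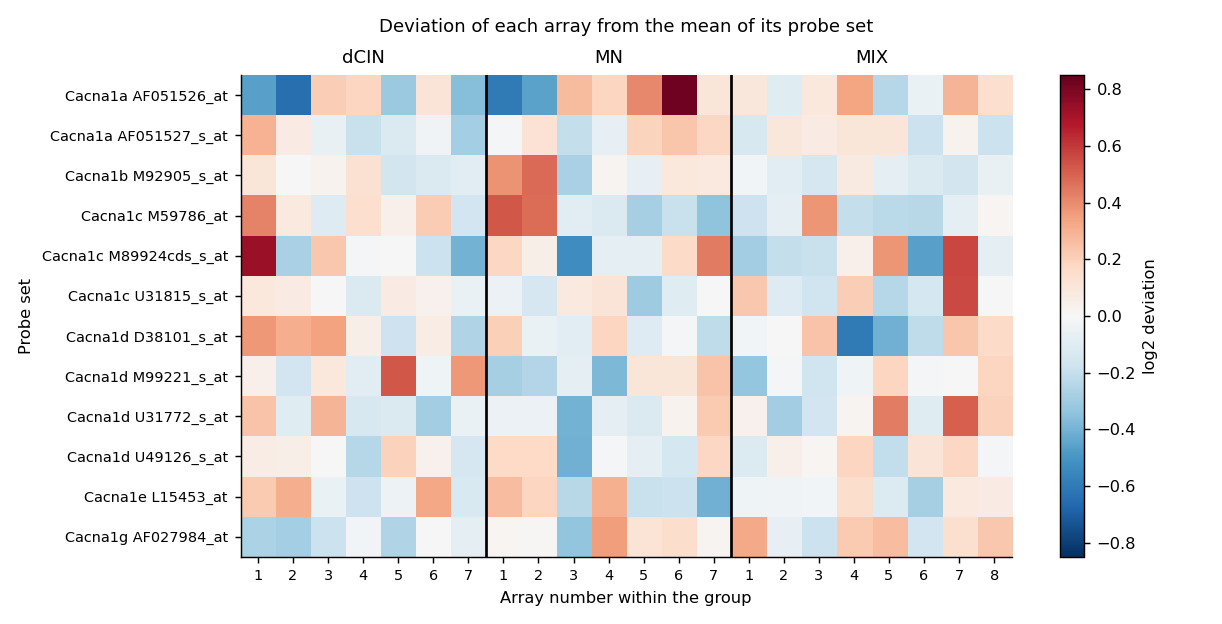
Each row is an alpha-1 probe set, each column an array (numbered within dCINs, MNs and MIX), and the colour is the log2 deviation of that array from the mean of the probe set over all 22 arrays, red above and blue below. The largest deviation is 0.82 and the median size 0.15, and no row is red throughout one of the groups and blue throughout another.

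The arrays numbered 1 and 2 stood apart for several members. MN samples 1 and 2 were also the largest, with 250 and 230 cells, against 55 to 115 cells in the other MN samples, whereas dCIN samples 1 and 2 had 60 and 75 cells. Within arrays 1 and 2 the log2 difference of dCINs from MNs was -0.022 for Cacna1a AF051526_at, -0.38 for Cacna1b and -0.25 for Cacna1c M59786_at, and within arrays 3 to 7 it was -0.39 for Cacna1a AF051526_at, -0.012 for Cacna1b and 0.23 for Cacna1c M59786_at. For Cacna1c M59786_at the sign thus turned with the arrays used. Array number and cell number cannot be told apart in the MNs.

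Without the MN samples of over 200 cells the log2 difference of dCINs from MNs was -0.54 for Cacna1a AF051526_at (limma unadjusted p = 0.00858, adjusted p = 0.177) and 0.30 for Cacna1c M59786_at (adjusted p = 0.262). That fit kept dCIN arrays 1 and 2, which were the lowest dCIN arrays for Cacna1a AF051526_at. Without arrays 1 and 2 of both groups, Cacna1a AF051526_at had -0.39 (limma unadjusted p = 0.0364, adjusted p = 0.328). Cacna1c M59786_at then had 0.23 (adjusted p = 0.405). With a covariate for cell number it was -0.53 for Cacna1a AF051526_at (adjusted p = 0.303) and 0.35 for Cacna1c M59786_at (adjusted p = 0.168). Neither was called in any of these fits. Without the large MN samples, and with the covariate, both moved by over 1.5 times. Against MIX, Cacna1c M59786_at was called with that covariate, at a log2 difference of dCINs from MIX of 0.41 (limma adjusted p = 0.0910), and was 0.17 without it (adjusted p = 0.944). It was 1 of 12 alpha-1 probe sets called in a fit that called 6.48 percent of all probe sets (68 of 1050).

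Probe sets of the same gene showed little agreement over the arrays. Over the 22 arrays the log2 signals of the 10 pairs within Cacna1a, Cacna1c and Cacna1d had a Pearson r of -0.36 to 0.24, with a median of 0.073. None passed a permutation test (adjusted p of 0.779 to 0.907 over the 10 pairs). The strongest was the negative one between Cacna1d D38101_s_at and M99221_s_at, with r = -0.36 and Spearman's rho = -0.38 (permutation p = 0.101 and 0.0857). It had r = -0.42 without the 2 arrays farthest from the median of D38101_s_at. Within the groups the 10 pairs had r of -0.71 to 0.61 in dCINs, -0.82 to 0.76 in MNs and -0.19 to 0.46 in MIX, with this pair the lowest in each, and the Cacna1d pair of U31772_s_at and U49126_s_at the highest in MNs.

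As a description of the table, the 436 pairs of probe sets that share another gene had a median r of 0.14. Of them 19.7% had an r over 0.5, which none of the 10 alpha-1 pairs reached. An r below 0 was found for 20% of the alpha-1 pairs and 35.6% of the others. The pairs were not matched on signal. Without the arrays numbered 1 and 2, a choice made after seeing the data, the Cacna1a pair had r = 0.54 over 16 arrays, against 0.056 over all 22. All arrays share 1 normalization, so these values are not independent. Of the alpha-1 probe sets 8 carry the suffix _s_at, with which the maker marks probes that can match more than 1 transcript, and which transcripts each one reads was not tested.

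**Figure D4:**
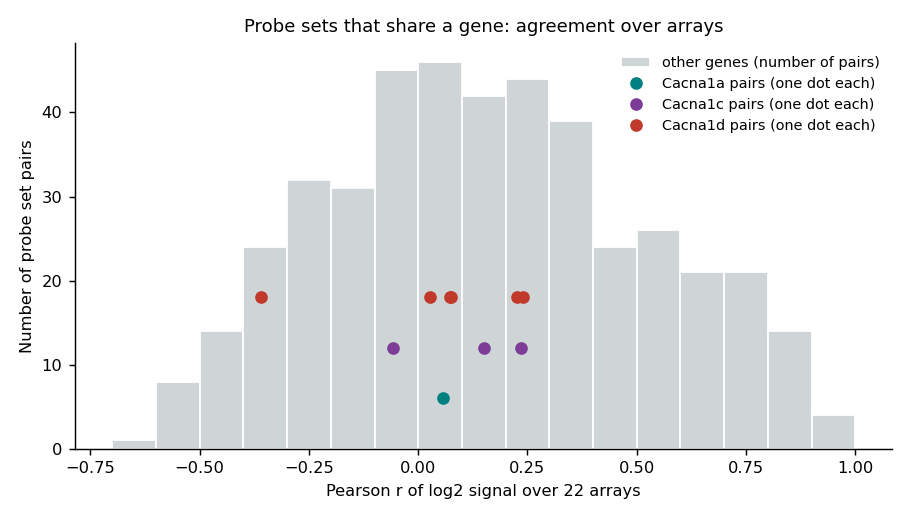
The grey histogram counts pairs of probe sets that share a gene other than an alpha-1 gene by the Pearson r of their log2 signals over 22 arrays, and each coloured dot is 1 alpha-1 pair, placed at its r with a height that only separates the genes. The 10 alpha-1 pairs lie between -0.36 and 0.24.

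The genes whose signal was most like that of Cacna1g over the 22 arrays were Gabbr1, a GABA-B receptor subunit (r = 0.78, rho = 0.79), Smad1, a signal carrier of bone morphogenetic proteins (r = 0.76, rho = 0.75), and Adra1b, an adrenergic receptor (r = 0.72, rho = 0.64). Cacna1g was both the alpha-1 probe set with the smallest p and the one with the highest mean signal. The log2 difference of dCINs from MNs was -0.33 for Gabbr1, -0.047 for Smad1 and -0.25 for Adra1b, and none was called (limma adjusted p = 0.716, 0.844 and 0.721).

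Of the auxiliary subunits 4 of 15 listed genes were measured, by 1 probe set each, and none was called. Cacna2d1, the alpha2-delta subunit that brings the channel to the membrane, averaged 1033 ± 289 in dCINs (SD, n = 7), 979 ± 403 in MNs (SD, n = 7) and 729 ± 349 in MIX (SD, n = 8). Its log2 difference of dCINs from MNs was 0.13 (95% interval -0.41 to 0.67, limma adjusted p = 0.866), and MIX array 7 stood far below the rest at 137. The same array was the lowest for Cacnb3, a beta subunit of neuronal channels, at 41.7.

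Cacnb3 averaged 201 ± 43.3 in dCINs, 218 ± 126 in MNs (SD, n = 7 each) and 184 ± 77.6 in MIX (SD, n = 8), with a log2 difference of dCINs from MNs of 0.081 (95% interval -0.63 to 0.79), so that the means of the signal and of its log2 differed in sign. The log2 difference was 0.85 within arrays 1 and 2 and -0.23 within arrays 3 to 7. MN arrays 1 and 2 were its lowest MN arrays, at 73.5 and 101, and also the lowest for Cacna2d1, at 564 and 649. For Cacnb2, another beta subunit, they were the highest, at 70.3 and 78.8, with a log2 difference of -0.22 over all arrays (95% interval -0.61 to 0.18). Cacng1, the gamma subunit of the skeletal muscle channel, differed by -0.076 (95% interval -0.31 to 0.16).

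Among other genes of calcium handling 2 of 43 probe sets were called, a share of 4.65% beside the 3.81 percent of all probe sets. Of the release machinery at presynaptic calcium channels, with 5 genes and 10 probe sets measured, 1 probe set fell and none rose. It was Syt2, a fast calcium sensor of vesicle fusion, at 57.9 ± 6.34 in dCINs against 91.1 ± 15.6 in MNs (SD, n = 7 each), a log2 difference of -0.64 (SE 0.11, limma adjusted p = 0.00331). The next by p, Nrxn3, a presynaptic adhesion protein, had 395 ± 127 in dCINs against 185 ± 117 in MNs (SD, n = 7 each), a larger log2 difference of 1.31 (SE 0.42) with the opposite sign that was not called (adjusted p = 0.144). The study, which ordered genes by their mean rank over several tests, listed Nrxn3 as more expressed in dCINs. Snap25, a membrane fusion protein, had 0.20 on its probe set of smallest p, AB003992_s_at (adjusted p = 0.727). Of intracellular calcium release and clearance, with 7 genes and 15 probe sets, 1 rose and none fell. It was Atp2a2, the calcium pump of the endoplasmic reticulum, whose probe set rc_AA957510_s_at had 736 ± 126 in dCINs against 447 ± 176 in MNs (SD, n = 7 each), a log2 difference of 0.80 (SE 0.22, limma adjusted p = 0.0768). Its other probe set, J04024_at, differed by -0.053 and was not called. The plasma membrane calcium pumps Atp2b2 (L05557cds_g_at) and Atp2b1 had -0.22 and -0.19 (adjusted p = 0.581 and 0.669).

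None of the 7 probe sets of calcium-activated potassium channels (4 genes) and none of the 11 of calcium sensors, buffers and calmodulin kinases (9 genes) was called. The smallest p among them was that of Calm3, a calmodulin gene, at 808 ± 83.4 in dCINs against 653 ± 157 in MNs (SD, n = 7 each), with a log2 difference of 0.34 (limma adjusted p = 0.415). Ppp3ca, a catalytic subunit of calcineurin, had 0.34 (adjusted p = 0.463) and the calmodulin kinase Camk2g -0.64 (adjusted p = 0.598). The potassium channel genes Kcnn1, Kcnma1 (AF083341_s_at) and Kcnmb1 (AB010963_s_at) had -0.16, 0.17 and -0.22 (adjusted p = 0.629, 0.690 and 0.715). The median log2 difference was 0.063 for the release machinery, -0.020 for calcium release and clearance, -0.10 for the potassium channels and 0.17 for the sensors, buffers and kinases, beside -0.034 over all probe sets.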

How the data were processed

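The deposited intensity values, 1050 probe sets on 22 Affymetrix RN_U34 arrays, were made by the authors with the affy package (version not given in the sources used here) from the perfect match probes. They subtracted each array's minimum, applied a linear and then a full quantile normalization, took Li-Wong summaries on a linear scale and subtracted a common minimum. That last step can enlarge ratios of low signals, and the normalization assumes a common distribution for all arrays. All value columns were mapped to a sample (0 were not). Groups came from the sample titles.

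The values were log2-transformed and compared with limma 3.58.1 in R 4.3.3 (no trend, not robust), dCINs against MNs over 14 arrays and the MIX comparisons over 22, with Benjamini-Hochberg adjustment over all probe sets. Single probe sets were also compared by exact permutation over all 3432 splits of the 14 arrays, and over all splits for MIX. Python 3.11.15, pandas 2.3.3, scipy 1.17.1 and matplotlib 3.10.9 were used for the rest. The code was tested on simulated data.

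Of the probe sets 961 have 1 platform symbol, 7 several and 82 none, and symbols were taken from the platform annotation. The members, gene lists and tests were chosen with earlier results of these data known. Every alpha-1 probe set was named, as were the 3 genes most correlated with the alpha-1 probe set of smallest p and of highest mean, and up to 3 probe sets of smallest p of each list. Every difference compares arrays within a single probe set. Levels were ranked or added over probe sets only to pick the alpha-1 probe set of highest mean and to sum marker lists. The number of arrays limits the precision, since no molecule count stands behind a signal. The alternatives were another set of arrays in the fit, an offset of 32, a filter at a mean log2 of 6, other normalizations, a robust trend, array weights, a replicate block, the number of cells as covariate, and left-out arrays.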

Additional observations from a re-analysis of the deposited data

Results flagged for a closer look

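The value of Cacna1c M59786_at on MIX array 3 was 94.2, while the other 7 MIX arrays lay between 61.7 and 73.7, so that this array stood apart from its group. This was the only such value in 36 groups of arrays looked at, and chance alone sets apart about 1 group in 20.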

How the results depend on the processing

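No alpha-1 probe set tested was called between dCINs and MNs under any of 13 alternative settings or with any of the 14 arrays left out (limma, lowest adjusted p 0.156, for Cacna1g with array weights), and 11 of 316 such values had an unadjusted p under 0.05. The count over all probe sets, 40, was 76 with array weights and 83 with arrays 1 and 2 as a covariate, which was added after seeing the data. The filter on low values left 4 of the 12 alpha-1 probe sets to test. Between dCINs and MIX 1 alpha-1 probe set was called with the number of cells as covariate. The direction of dCIN minus MN held in 297 of the 316 values. It turned for 4 probe sets. Cacna1b M92905_s_at was 0.014 with the number of cells as covariate and 0.016 without the MN samples of over 200 cells. Cacna1c M89924cds_s_at was 0.0070 after quantile normalization, 0.0061 after subtracting array medians and 0.031 without those MN samples, and -0.13 to 0.065 with single arrays left out. Cacna1d U31772_s_at was -0.0076 with array weights and -0.024 with the number of cells as covariate, and -0.017 to 0.086 with single arrays left out. Cacna1d U49126_s_at was -0.051 to 0.053 with single arrays left out. The cause of these changes was not tested. With the array number as a replicate block, 0 alpha-1 probe sets and 55 of all were called between dCINs and MNs. Deviations from the group mean correlated between same-numbered dCIN and MN arrays at -0.19 to 0.53, with 5 of 7 pairs over 0.1. Of the 7, 2 correlated best with their own number, so that the numbers were not taken as pairs.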
